A study of Dicentrarchus labrax with 16 samples.

Results

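Runs of neighbouring CpG sites with intermediate DNA methylation in both testis and muscle were examined in European sea bass (Dicentrarchus labrax). CpGs on the linkage groups (LG, the chromosomes of the assembly) that lay up to 100 bp apart were joined into runs, and a run of 5 to 14 CpGs was kept when its mean methylation was between 30 and 70% in each of 6 libraries and its tissue means differed by less than 15 percentage points. Of 20603 runs of 5 to 14 CpGs, 281 (1.36%) met these limits, and they held 1946 CpGs on 24 linkage groups. A further 32 runs were between 30 and 70% in all 6 libraries but were removed by the limit on the tissue means. The runs were thus chosen by their run means in these same 6 libraries, and the levels of these means describe the choice and are not a result.

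The testis and the muscle were taken to come from the same 3 fish, as numbered in the library titles. The fish were wild adults caught by speargun outside the reproductive season, with no treatment stated. The tissues had been kept in RNAlater. Testis mixes several kinds of germ and somatic cells, whereas muscle holds mainly myocytes, and both were measured as whole tissue, so that a mixture of cells and a partial methylation within each cell type cannot be told apart. The libraries were made by reduced representation bisulfite sequencing (RRBS), in which DNA is cut at CCGG, short fragments are treated with bisulfite and a methylated cytosine is read as C. The methylation level of a CpG is the percentage of its reads with C.

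Methylation of cytosine in vertebrates is found mostly at CpG dinucleotides and is carried on both strands of the palindromic site. A single DNA molecule is either methylated or not at a given site, so that an intermediate level is a property of a population of molecules. Known sources of intermediate levels are mixtures of cell types, copies of a gene that differ between the parental alleles, sequence differences between alleles and sites that are methylated in a fraction of the molecules of each cell type.

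Few runs of the sea bass genome were of this kind. At 5796 runs (28.1%) every library was at 10% or less, and at 6343 runs (30.8%) every library was at 80% or more. No library lay between 30 and 70% at 15504 runs (75.3%), and the number of runs fell with the number of libraries inside the limits, with 1825 runs for 1 library, 874 for 3 and 313 for all 6. The intermediate runs thus sat between the peaks of a bimodal distribution that both tissues shared, as the distribution of all run means shows. Its lowest bins lay below this range, with 96 runs at 20 to 25% in testis and 127 at 15 to 20% in muscle. From the bin at 30 to 35% to that at 65 to 70% the number went from 155 to 314 in testis and from 154 to 559 in muscle.

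**Figure D1:**
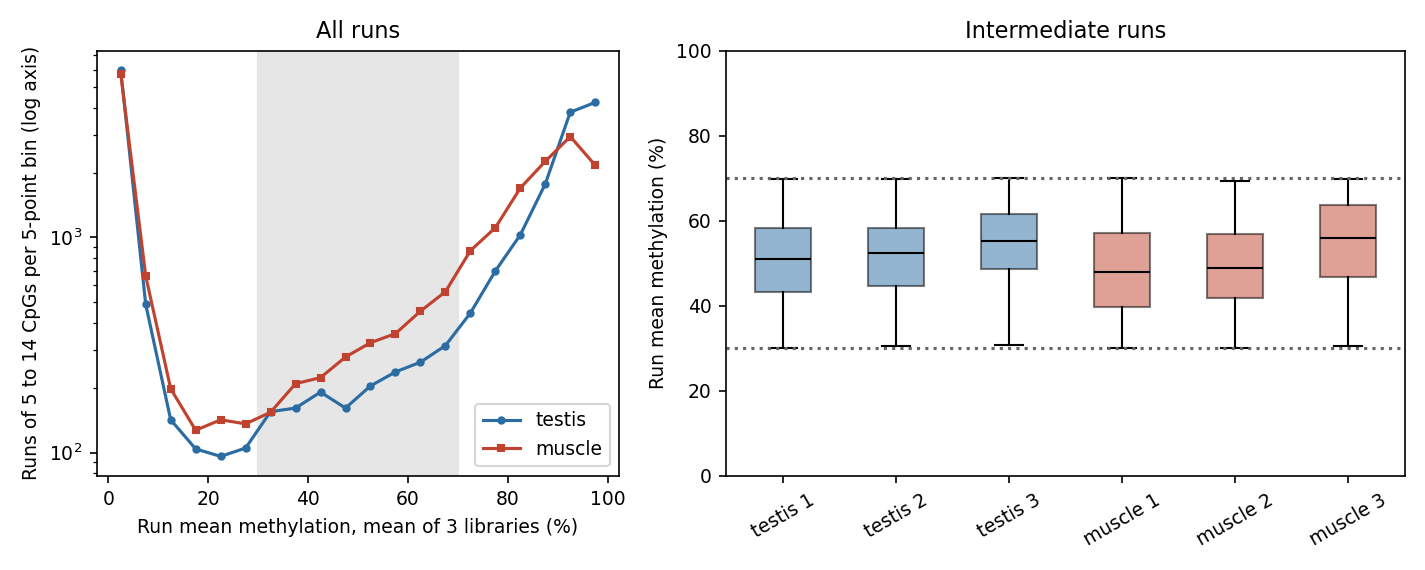
Left, number of runs of 5 to 14 CpGs per bin of 5 percentage points of run mean methylation, as the mean of 3 testis or 3 muscle libraries, with the number of runs on a log axis and the range of 30 to 70% in grey. Right, run means of the 281 intermediate runs in each library, with the median as a line, the interquartile range as a box, the full range as whiskers and the limits of the choice as dotted lines.

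The medians of the 281 run means were 51.0, 52.3 and 55.2% in testis of fish 1, 2 and 3, against 48.0, 48.9 and 55.9% in muscle of the same fish. In both tissues fish 3 had the highest median. Testis minus muscle ran from -14.0 to 14.9 percentage points with a median of 1.82, and the testis mean was the higher in 172 runs and the muscle mean in 109. Most runs differed little between the tissues, as the choice required. The SD between the 3 fish had a median of 4.83 percentage points in testis and 8.02 in muscle. These SDs come from the run means that the choice had limited and are given as a description.

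Reads were numerous at these runs. The median coverage per CpG of a run was 98.5, 158 and 126 reads in testis 1, 2 and 3 and 75.5, 199 and 69.5 reads in muscle 1, 2 and 3. Coverage summed over the CpGs of a run was between 70 and 4070 in a library. A read that spans several CpGs is counted at each of them in this sum, which is therefore not a number of separate reads. Muscle 2 was the deepest library of the series and muscle 3 and 1 were the shallowest. Set against the other runs of 5 to 14 CpGs, the median coverage was 1.08 times as high on average over fish (log2 ratios 0.15, 0.11 and 0.06 in fish 1, 2 and 3), and it was the higher in all 6 libraries. With 3 fish the smallest p that a two-sided exact sign-flip permutation test can give is 0.25, and this value was obtained (p = 0.25). Extra copies of a sequence that were aligned to a single place would raise coverage, but the part of collapsed copies in these runs was not tested.

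The runs were short. Their median length was 112 bp (interquartile range 81 to 159 bp, full range 23 to 320 bp), and their median number of CpGs was 6. The lowest number allowed, 5 CpGs, was found in 103 runs. Their median CpG density was the lowest of the 4 classes, with 5.67 CpGs per 100 bp in intermediate runs, against 7.53 in runs at 10% or less, 6.82 in runs at 80% or more and 6.02 in the remaining runs. The share of intermediate runs was 1.63% among runs of 5 CpGs and 0.80% among runs of 14 CpGs, with values between 0.973 and 1.65% at the sizes between them.

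Intermediate runs were found on every linkage group. The share ran from 0.817% of the runs on LG24 (6 of 734, 95% Wilson interval 0.375 to 1.77%) to 1.86% on LG15 (15 of 808, 1.13 to 3.04%), and these intervals overlapped. By position, 61 of 3045 runs (2.003%) in the outermost 10% of the way between the end and the middle of a linkage group were intermediate. Between 25 and 50% of the way the share was lowest, with 51 of 5174 runs (0.986%), and nearest the middle it was 1.53%. The members were scattered, and only 5 neighbouring pairs lay less than 10 kb apart. Genes around these runs were not examined, because no genome or annotation of the build of the files (dicLab v1.0c) was used, and for the same reason no sequence is shown.

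The state of the runs was then examined in a fish that had not been used to choose them. With the limits applied to fish 2 and 3 alone, 409 runs were chosen, and in fish 1, which was held out, 87.8% of them were between 30 and 70% in testis and 74.6% in muscle. Of all runs, 8.31% of testis 1 and 13.2% of muscle 1 were in this range. With fish 2 held out (353 runs) the shares were 90.1% in testis 2 and 81.0% in muscle 2, against 8.42 and 12.6% of all runs. Most intermediate runs were thus intermediate in the fish that had no part in the choice.

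Fish 3 departed most. Without it 451 runs were chosen, against 281 with all fish, and 87.6% of them were between 30 and 70% in testis 3 but 65.0% in muscle 3 (8.07 and 11.2% of all runs). The medians of these runs in fish 3 were 58.1% in testis and 62.1% in muscle, and 29.3% of them were over 70% in muscle 3. The shift of fish 3 toward higher methylation was therefore seen in both tissues. Muscle 3 was the library with the lowest coverage, and the part of coverage in this shift was not tested.

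**Figure D2:**
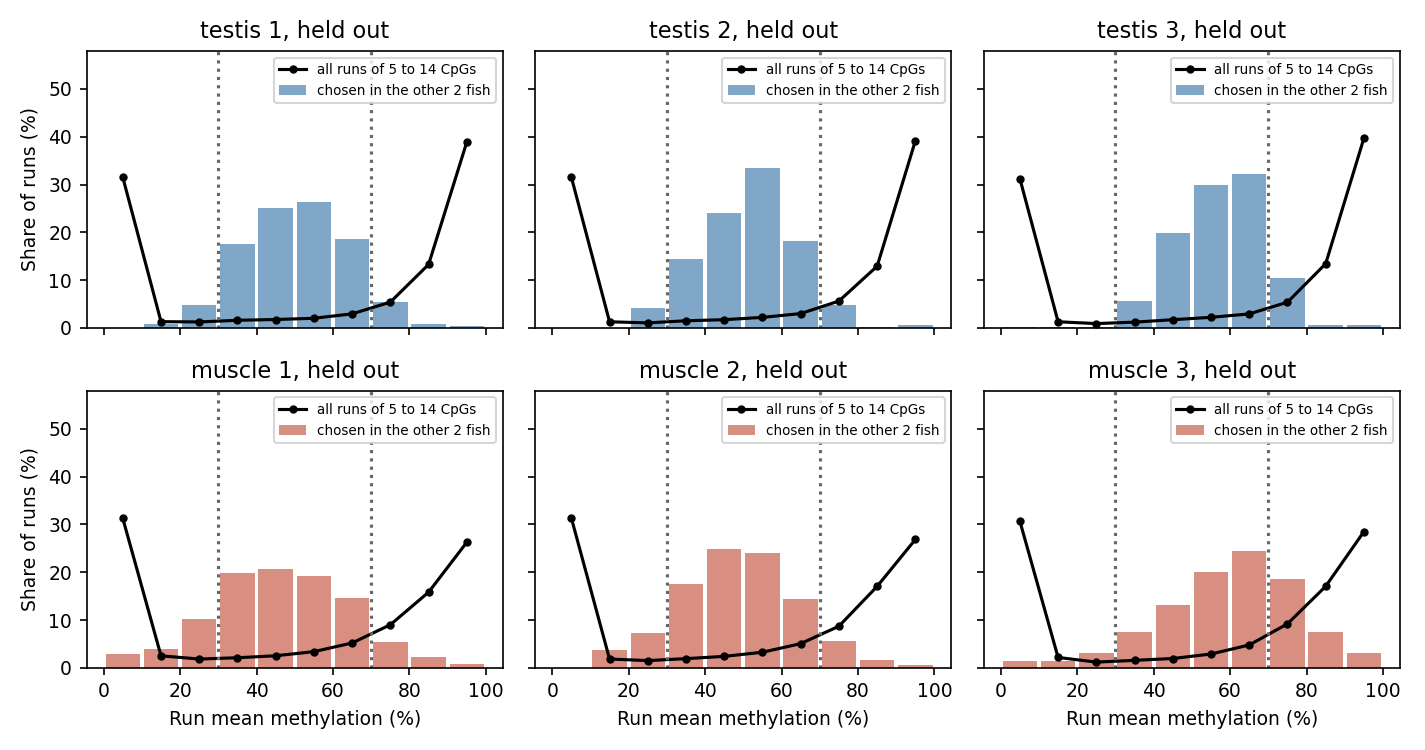
Share of runs (%) by run mean methylation (%, bins of 10 points) in the library named above each panel, which was held out. Bars are runs chosen in the other 2 fish (409, 353 and 451 runs for fish 1, 2 and 3) and the line is all 20603 runs of 5 to 14 CpGs. The bars lie mostly between the dotted limits of 30 and 70%, where the line is low, and in fish 3 they are displaced toward higher methylation.

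The choice was then made in a single tissue. When the limits were applied to the 3 testis libraries alone, 1123 runs were chosen, and 313 of them (27.9%) were between 30 and 70% in all 3 muscle libraries, against 4.03% of all runs. In 293 (26.1%) the muscle mean was over 70% and in 91 (8.10%) it was under 30%. When the limits were applied to muscle alone, 831 runs were chosen, of which the same 313 (37.7%) were between 30 and 70% in all testis libraries, against 5.45% of all runs. The testis mean was over 70% in 387 of these runs (46.6%) and under 30% in 22 (2.65%). Runs chosen in muscle were over 70% in testis more often than they were under 30% there. All runs of 5 to 14 CpGs went the same way, with medians of 82.5, 82.5 and 83.4% in the testis libraries. Their medians in the muscle libraries were 71.6, 73.5 and 75.9%. The shares of all runs over 70% and under 30% are not given here, so no excess is read from these counts.

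A mean near 50% can be made of CpGs that are each near 50% or of CpGs at opposite extremes. The choice had used the mean over these CpGs, so that the levels of single CpGs are not independent of it. CpGs between 20 and 80% made up 84.2, 85.3 and 83.6% of the 1946 CpGs in testis 1, 2 and 3, against 68.1, 80.01 and 71.8% in muscle 1, 2 and 3. CpGs at exactly 0 or 100% made up 2.06, 1.64 and 2.36% in testis, against 12.1, 3.39 and 11.2% in muscle. Most CpGs of the runs were therefore between 20 and 80% themselves, a share that the limits on the mean favour. The same shares over the CpGs of all runs are not given here. Testis and muscle libraries did not overlap in either share. The means were 84.4 ± 0.831% in testis and 73.3 ± 6.08% in muscle for CpGs between 20 and 80%, and 2.02 ± 0.361% in testis and 8.91 ± 4.80% in muscle for CpGs at 0 or 100% (SD, n = 3 each). Both differences (11.0 and -6.89 percentage points) had a p of 0.1 in a two-sided exact permutation test, the smallest value that 3 libraries against 3 allow. This test does not use the pairing by fish. With the libraries paired, an exact sign-flip permutation test gave p = 0.25 for both, the smallest value that 3 fish allow.

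Neighbouring CpGs within a run were compared in the same way. The median over runs of the SD between CpGs was 15.1, 14.98 and 13.9 percentage points in testis 1, 2 and 3, against 26.8, 18.5 and 24.4 in muscle 1, 2 and 3 (difference -8.57, exact permutation test, p = 0.1). At the 290 CpGs with enough reads on both strands, the median absolute difference between strands was 10.2, 8.88 and 8.88 percentage points in testis and 23.7, 15.4 and 22.1 in muscle (difference -11.1, exact permutation test, p = 0.1). The order of the SD was not particular to these runs, but not every class had it. The remaining runs had a median SD between CpGs of 7.44 to 7.99 points in testis libraries and 12.8 to 18.8 in muscle libraries. Runs at 80% or more had 3.36 to 3.58 in testis and 6.73 to 9.06 in muscle. In runs at 10% or less the tissues overlapped, with 2.94, 2.48 and 2.86 in testis and 2.48, 2.69 and 2.35 in muscle. In all 4 measures at the intermediate runs muscle 2, the deepest library, was the muscle library closest to testis. With both strands of each CpG required, which left 11 runs, the differences were -2.15 points for CpGs at 0 or 100% (exact permutation test, p = 0.4), 5.38 for CpGs between 20 and 80% (p = 0.2) and -3.14 for the SD between CpGs (p = 0.1). Thinned to an expected 10 reads per CpG, an alternative chosen after seeing the data, CpGs at 0 or 100% made up 7.76, 7.58 and 8.40% in testis, against 20.2, 10.6 and 18.0% in muscle (exact permutation test, p = 0.1). The order of the libraries was thus the same at equal numbers of reads. Reads carry no molecular identifiers, so that a number of reads is not a number of DNA molecules.

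**Figure D3:**
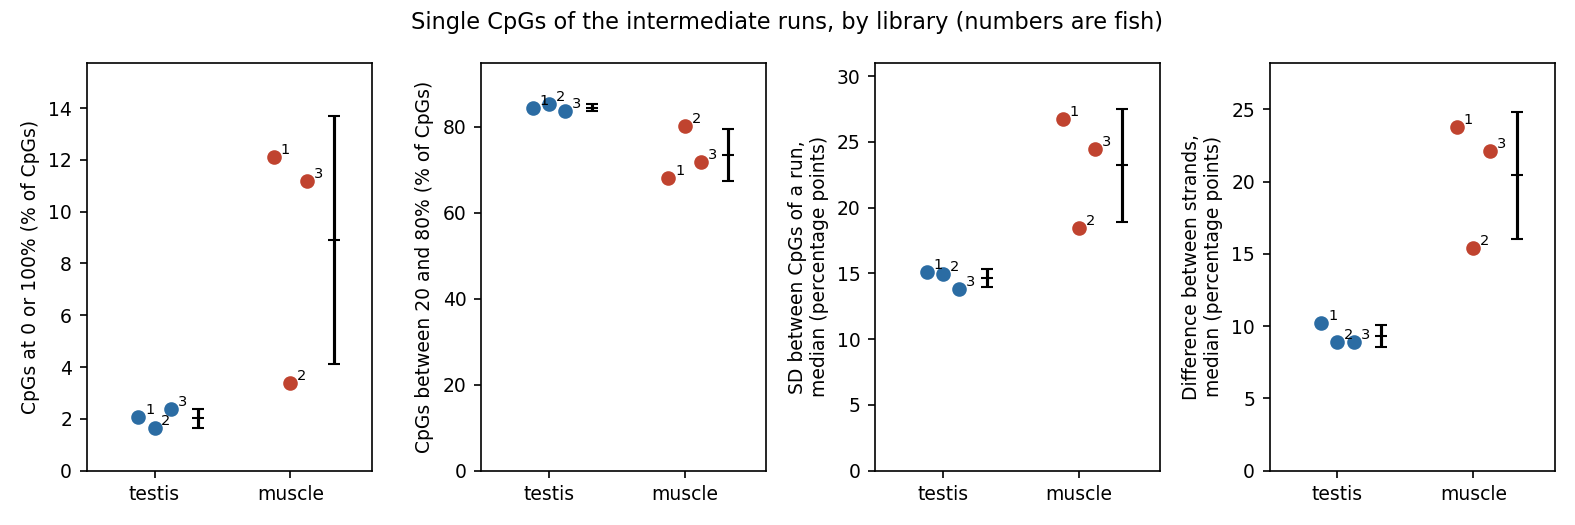
Single CpGs of the 281 intermediate runs by library, with testis on the left and muscle on the right of each panel. From left to right, CpGs at 0 or 100% (%), CpGs between 20 and 80% (%), median SD between the CpGs of a run (percentage points) and median absolute difference between strands (percentage points). Points are libraries, labelled by fish, and bars give the mean and SD of the 3 libraries of a tissue. The testis libraries lie close together and muscle 2 lies nearest to them.

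The order of high and low CpGs along the runs was then compared between libraries. Across the 1946 CpGs, each taken as its difference from the mean of its run, Pearson's r was 0.838 to 0.858 between testis libraries, 0.719 to 0.768 between testis libraries and muscle 2, 0.583 to 0.605 between them and muscle 1, 0.574 to 0.625 between them and muscle 3, and 0.441 to 0.529 between muscle libraries. These values describe CpGs, which share reads and runs, and no p is given. In 172 runs (61.2%) every CpG was between 20 and 80% in testis, in 147 (52.3%) in muscle and in 127 in both, as means of 3 libraries. Within these 127 even runs (822 CpGs) r was 0.612 to 0.653 between testis libraries and 0.0468 to 0.236 between muscle libraries. Between testis libraries and muscle 1, 2 and 3 it was 0.283 to 0.327, 0.403 to 0.495 and 0.222 to 0.291. Hence the order of CpGs was repeated between testis libraries even where all CpG means of 3 libraries were between 20 and 80%. Single libraries could still hold extreme CpGs in these runs. In the even run on LG16 starting at 1052653, muscle 1 had CpGs at 8.97% and at 100%. Each muscle library followed the testis order in the even runs more closely than that of another muscle library. The part of coverage in this was not tested.

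The remaining runs had other forms. Among runs that held both a CpG under 20% and a CpG over 80%, the level crossed 50% once along the run in 17 runs in testis and 19 in muscle, 11 of them in both. It crossed 50% more often in 16 runs in testis and 33 in muscle, 15 of them in both. Some CpGs under 20% among intermediate ones were found in 27 runs in testis and 37 in muscle, and some over 80% in 49 runs in testis and 45 in muscle. The 29 runs that spanned no more than the 50 bp of a read had median SDs between CpGs of 27.4, 25.6 and 27.3 percentage points in testis and 34.7, 25.2 and 30.02 in muscle. The 252 longer runs had 14.5, 14.5 and 13.7 in testis and 25.9, 18.1 and 23.9 in muscle, and the shorter runs were thus the less even ones.

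The 3 runs with the smallest SD between CpGs show the even form. The run on LG15 from 24447083 to 24447125 (dicLab v1.0c) had 5 CpGs and run means of 67.1, 56.1 and 57.4% in testis, against 56.7, 58.6 and 63.7% in muscle. Its CpG means stayed between 57.6 and 62.4% in testis and between 55.5 and 63.5% in muscle. On LG1A from 28345482 to 28345524 a run of 7 CpGs had 44.1, 53.9 and 52.3% in testis, against 58.4, 54.1 and 44.5% in muscle. In testis 1 of this run 6 CpGs were all at 43.5% and the last at 47.8%. Both runs were read on a single strand and were shorter than a read. The run on LG16 from 22145959 to 22146014 was read on both strands and had 63.9, 68.1 and 64.6% in testis, against 47.4, 48.5 and 56.5% in muscle, and its tissues did not overlap.

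The 3 runs with the largest SD between CpGs held both extremes within 50 bp. On LG17 from 203231 to 203276 the first 3 of 5 CpGs had testis means of 100, 100 and 97.2% and muscle means of 100, 98.2 and 89.3%. The last 2 CpGs, the nearer of them 7 bp away from the third, were at 0.952 and 0% in testis and at 2.19 and 1.63% in muscle. A second run on LG17, from 21741785 to 21741831, had the same form, with 94.5, 96.3 and 97.0% followed after 5 bp by 0.269 and 0.901% in testis, and with 81.3, 91.8 and 92.9% followed by 0.183 and 0% in muscle. On LG10 from 356118 to 356163 the 7 CpGs switched several times, with testis means of 97.7, 7.21, 95.8, 8.88, 100, 99.2 and 0% and muscle means of 100, 7.73, 99.1, 2.48, 98.0, 93.3 and 7.81%. These 3 runs were read on the forward strand alone, and each was shorter than a read, so that a single read could hold both its high and its low CpGs.

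**Figure D4:**
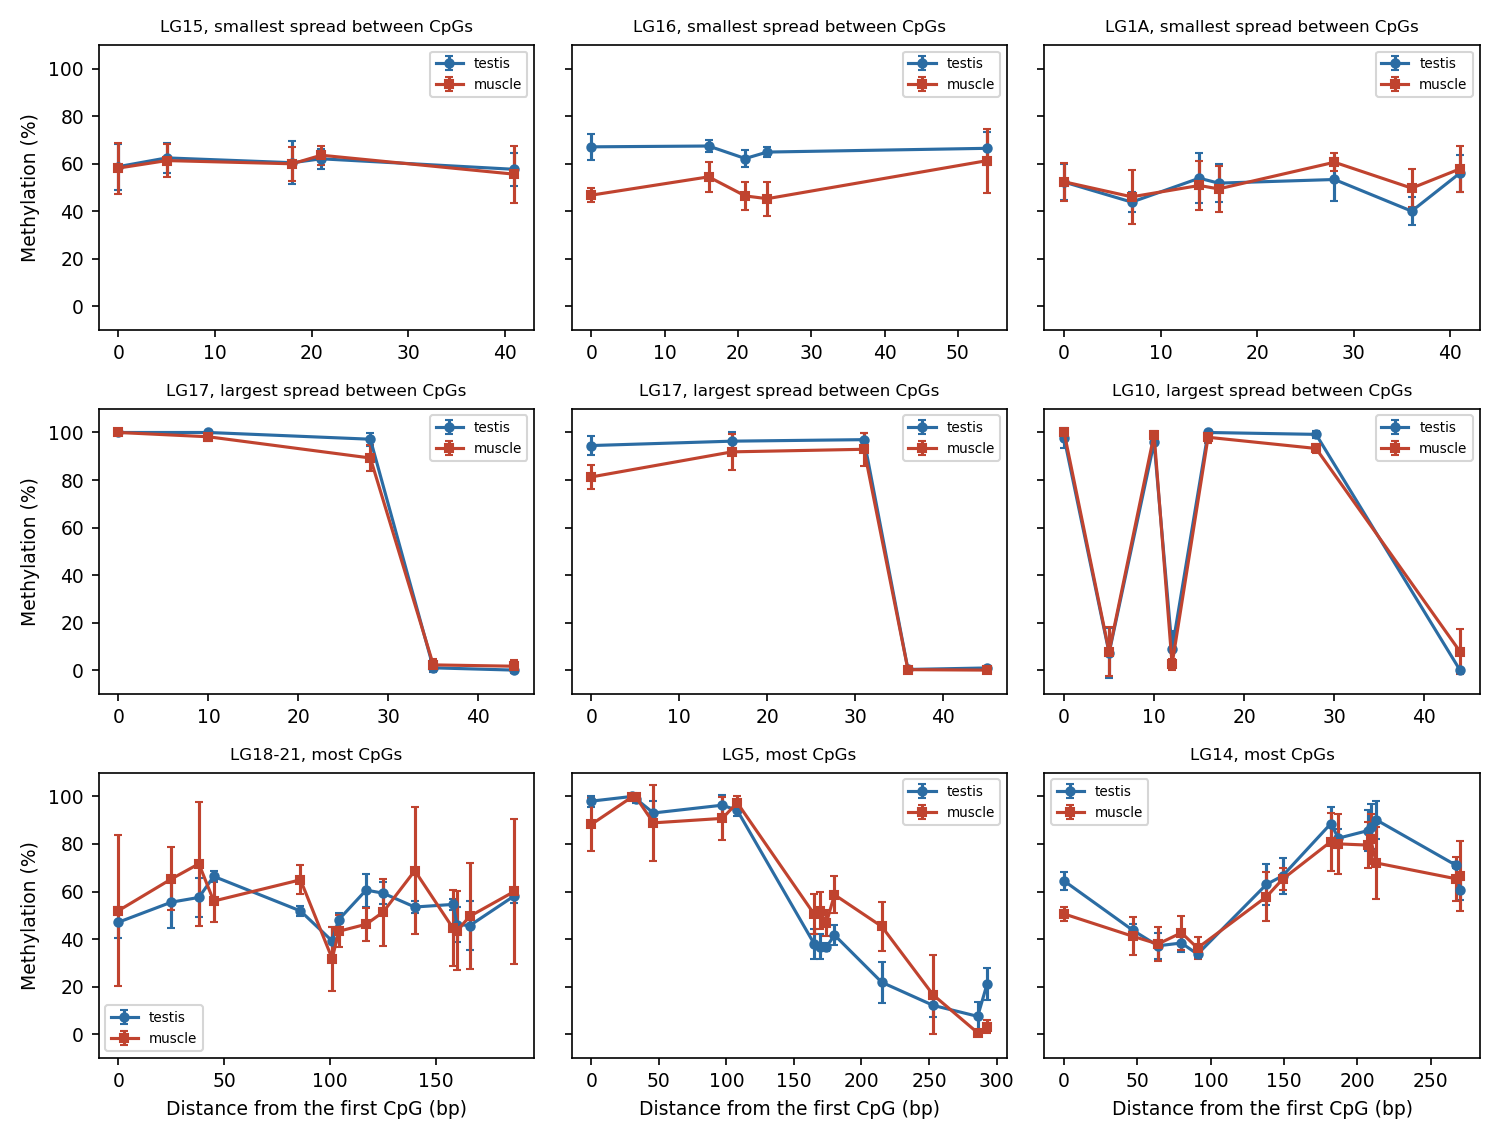
Methylation (%) of single CpGs against the distance from the first CpG (bp) in the 3 runs with the smallest SD between CpGs (top), the 3 with the largest (middle) and the 3 with the most CpGs (bottom). Points are means of 3 libraries and bars are SDs, for testis (circles) and muscle (squares). The top runs stay between 39.97 and 67.4% at every CpG mean, whereas the middle runs hold CpGs near 0 and near 100%.

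A few CpGs were at the same extreme in every library. Of the 1946 CpGs, 20 were at 5% or less in all 6 libraries and 14 were at 95% or more in all 6. The low ones were found in 13 of the 281 runs (4.63%), against 583 of 8183 (7.12%) of the remaining runs. Runs at 80% or more in each library held them in 7 of 6343 (0.110%), a class whose limit leaves little room for a low CpG. Such CpGs were thus not particular to the intermediate runs. Without these CpGs, 3 of the 13 runs would have stayed between 30 and 70% in each library and 10 would have left this range. In the run with the highest coverage relative to its libraries, on LG13 from 2225344 to 2225388, the second of 5 CpGs was at 0.451, 0.273 and 0.254% in testis and at 0, 0.230 and 0% in muscle, with at least 176 reads at every CpG. The CpGs on either side were at 83.5 to 88.8% and 52.9 to 63.6% in testis. A C-to-T difference between the fish and the reference would also be read as an unmethylated site, and the part of sequence differences was not tested.

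Strands were compared over whole runs where each strand had at least 2 cytosines, which was the case in 229 runs. Averaged over the 6 libraries, both strands were between 30 and 70% in 185 of them (80.8%), and the median absolute difference was 9.68 percentage points. In single libraries both strands were in this range in 168, 169 and 168 runs in testis, against 119, 147 and 114 runs in muscle. In muscle 3 these were 49.8% of the runs that could be compared. The choice had limited the mean over the CpGs of both strands, so that these shares are not independent of it. They describe the chosen runs, and the same shares over other runs are not given here. In 2 runs, which were chosen after their values were seen, the strands were at opposite extremes in every library. On LG15 from 13070252 to 13070331 the forward strand was at 3.75, 1.89 and 1.63% in testis and 0.794, 0.269 and 1.08% in muscle, whereas the reverse strand was at 89.9, 84.7 and 92.5% in testis and 93.5, 84.3 and 92.9% in muscle. On LG4 from 27520219 to 27520306 the forward strand averaged 95.4% and the reverse strand 7.40% over the 6 libraries. The strands are read from different fragments, or from different ends of a fragment, and cover different CpGs for the most part. In the LG15 run 3 forward and 2 reverse cytosines made up the 5 CpGs, and none was read on both strands. A difference between strands and a difference between CpGs cannot be told apart in the LG15 run. In the LG4 run 3 forward and 4 reverse cytosines covered 5 CpGs, so that some CpGs were read on both strands. The levels of these CpGs by strand are not given here.

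The 3 runs with the most CpGs had 14 each and differed in form. The run on LG18-21 from 8598515 to 8598703 had 52.2, 50.6 and 56.5% in testis, against 58.4, 45.2 and 56.8% in muscle. Its CpG means were between 39.1 and 66.4% in testis and between 31.7 and 71.7% in muscle. Single muscle libraries held more extreme CpGs, up to 100% in muscle 3 and down to 16.25% in muscle 1. The run on LG5 from 27175980 to 27176274 had 57.7, 53.7 and 59.2% in testis, against 55.8, 59.9 and 63.8% in muscle, and was a slope. Its first 6 CpGs were between 93.0 and 100% in testis, the next 4 between 36.6 and 41.7% and the last 4 between 7.45 and 21.8%. The run on LG14 from 21548839 to 21549110 had 63.6, 63.2 and 68.7% in testis, against 62.0, 63.0 and 58.8% in muscle, with a low stretch of 33.6 to 43.6% and a high stretch of 82.4 to 90.1% in testis. Its low stretch was covered mainly by the forward strand, at 34.8 to 41.0% in testis, and its other CpGs by the reverse strand, at 72.6 to 77.7%.

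Methylation around the runs was examined at CpGs outside them within 1000 bp, which had no part in the mean of the run they flank. The 2 closest pairs of intermediate runs, 406 and 532 bp apart, lay within each other's flanks. The flanks of these runs, at 52.6, 66.1, 40.6 and 46.5%, thus hold CpGs whose levels the choice had limited. Flanking CpGs were covered for 116 of the 281 runs. Their mean over runs was 64.2, 66.0 and 65.4% in testis 1, 2 and 3, against 60.1, 60.4 and 64.4% in muscle 1, 2 and 3, and the ranges of the tissues overlapped (difference 3.56, exact permutation test, p = 0.2). The flanks of 53 runs (45.7%) were themselves between 30 and 70%, those of 35 (30.2%) were over 80% and those of 6 (5.17%) were under 20%. In 80 runs (69.0%) the flank was more methylated than the run, as in 65.6% of runs at 10% or less and 27.1% of runs at 80% or more. Flanks between 30 and 70% were found at 3.73% of runs at 10% or less and 6.96% of runs at 80% or more. Flanks of the remaining runs are not given here. In comparison, 91.2% of the flanks of runs at 10% or less were under 20%, and 80.3% of the flanks of runs at 80% or more were over 80%. Runs with covered flanks on both sides numbered 25, of which 3 had both sides over 80% and 2 had a side over 80% and a side under 20%. Such opposite sides were found at 68 of the 1023 runs at 10% or less with both sides covered, and at 21 of 552 runs at 80% or more. As only 25 of the 281 runs could be judged, how many lay at a border was not settled. A change of level within a run is not counted here.

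**Figure D5:**
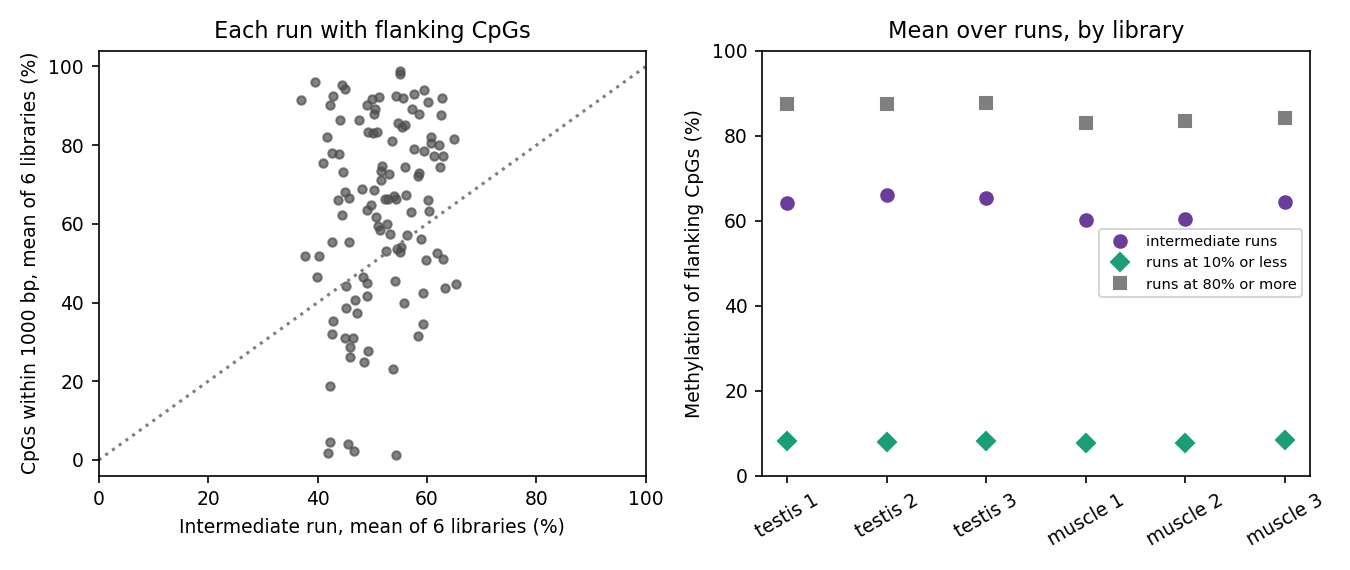
Left, methylation of flanking CpGs within 1000 bp (%) against that of the run (%), both as means of 6 libraries, for the 116 intermediate runs with such CpGs, with equality as a dotted line. Right, mean methylation of flanking CpGs (%) by library for intermediate runs, for runs at 10% or less and for runs at 80% or more. The flanks of intermediate runs are spread over the whole range and average between 60.1 and 66.0%.

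The 2 closest pairs of runs were on LG18-21 and LG16. On LG18-21 the runs from 16296799 to 16296843 and from 16297249 to 16297324 were 406 bp apart. The first had 68.1, 61.9 and 67.1% in testis, against 62.7, 44.1 and 67.4% in muscle, and the second 32.1, 44.5 and 34.3% in testis, against 44.2, 52.4 and 54.8% in muscle. In the second run the forward strand was at 73.0 to 84.2% in testis and 80.3 to 83.3% in muscle, and the reverse strand at 3.97 to 20.7% in testis and 21.1 to 39.0% in muscle, with at most 37 reads at a reverse cytosine. With a minimum of 20 reads per cytosine the mean of this run over the 6 libraries was 79.6% in place of 43.7%, so that it was no longer intermediate. On LG16 the runs from 15355893 to 15355956 and from 15356488 to 15356647 were 532 bp apart. Their means were 40.3 and 35.5% in testis, against 53.3 and 44.2% in muscle, in this order of position.

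Fish 3 was the highest fish of both tissues at 90 of the 281 runs (32.03%), fish 1 at 16 and fish 2 at 14. Among all runs of 5 to 14 CpGs, fish 3 was highest in both tissues at 16.2%. The 3 fish had the same order in testis and in muscle at 60 runs (21.4%), where 19.5% of all runs had it. These ranks come from the run means used for the choice and are a description. The higher level of fish 3 was not particular to the intermediate runs, since the medians of the remaining runs were 82.0, 82.0 and 83.1% in testis of fish 1, 2 and 3 and 70.7, 72.8 and 75.2% in muscle.

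Among the runs with the same order, those with the largest range between fish were on LG8, LG17 and LG11. The run on LG8 from 6218249 to 6218363 had 44.6, 57.9 and 36.7% in testis of fish 1, 2 and 3, against 43.0, 67.8 and 31.6% in muscle. On LG17 from 22102176 to 22102264 the values were 38.7, 48.1 and 56.9% in testis, against 35.1, 36.3 and 66.4% in muscle. On LG11 from 22391866 to 22391922 they were 46.9, 49.3 and 58.9% in testis, against 32.3, 36.9 and 66.6% in muscle. In these runs, chosen for it, the range between fish was wider in muscle than in testis.

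By limma's moderated F test on log2 methylated over unmethylated reads, with tissue as a covariate, no run differed between fish at an adjusted p under 0.05 (0 of 20603, a background of 0%, and 0 of 281). At an unadjusted p under 0.05 there were 793 runs (3.85%), none of them intermediate. On the percent scale the adjusted calls were also 0, but 1189 runs (5.77%) and 49 of the 281 intermediate runs (17.4%) had an unadjusted p under 0.05. The choice had limited the run means in these same libraries, so that the counts of intermediate runs on both scales describe the choice. The contrast between the scales was not tested. Differences between fish beyond the spread of these 6 libraries were not detectable.

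Differences between the tissues had been limited by the choice, and counts of them describe it. All 3 testis libraries were above all 3 muscle libraries in 36 of the 281 runs (12.8%) and in 23% of all runs, and the reverse held in 8 runs (2.85%) and in 5.45% of all runs. Among the single CpGs of the runs, testis was above muscle without overlap at 195 (10.02%), where 12% of the CpGs of all runs were, and muscle above testis at 105 (5.40%), where 6.8% were.

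The depth of single runs varied widely. The run on LG12 from 958220 to 958363, with 3.405 times the median coverage of its libraries, had 54.2, 58.5 and 45.8% in testis, against 33.2, 63.0 and 42.6% in muscle. At the low end, the run on LG17 from 3080286 to 3080334 had 0.278 times the median coverage, with 14 to 66 reads at a CpG, and 47.4, 41.9 and 54.6% in testis, against 66.3, 49.9 and 68.6% in muscle. Its CpG means ran from 3.70 to 82.1% in testis and from 0 to 87.0% in muscle, so that its single CpGs were not all intermediate. The run on LG11 from 22898934 to 22898976, at 0.295 times the median, had 33.3, 56.2 and 54.5% in testis, against 66.1, 52.9 and 45.9% in muscle. Intermediate run means were thus met at high and at low coverage, and the values of fish 1 in the last run lay farthest apart.

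At the limits themselves, the run closest to leaving the choice was on LG14 from 3145783 to 3145938, which lay 0.0051 percentage points under the upper limit in testis 3. It was followed by runs on LG16 starting at 15356488, 0.007 points above the lower limit in testis 1, and at 1052653, 0.011 points under the upper limit in muscle 1. Just outside were runs on LG12 from 14944997 to 14945094, which exceeded the upper limit in testis 2, on LG6 from 12481871 to 12481966, which exceeded it in muscle 2, and on LG2 from 18492604 to 18492799, which exceeded it in muscle 3. Their margins were -0.0013, -0.019 and -0.02 percentage points, so that a very small difference in a single library decided whether such a run was kept. The means over the 6 libraries were 55.3, 39.9 and 55.2% in the runs just inside. In those just outside they were 63.3, 60.7 and 58.8%.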

How the data were processed

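RRBS libraries of testis and muscle of 3 wild fish were used. The authors trimmed the 50-bp single-end reads with Trimmomatic, aligned them to dicLab v1.0c with BSMAP 2.90 and called cytosines with methratio. Each deposited file lists cytosines by strand, with the count of reads in a coverage column and 2 columns that hold the percent of those reads with C and with T. Replicate number in the library titles was taken to denote the fish, so that same-numbered libraries were treated as coming from the same animal. Deviations of run means from the tissue mean correlated at 0.217, 0.287 and 0.253 within fish over all runs, so the libraries were treated as paired in an alternative.

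Cytosines covered by 10 or more reads in every library, and not above its 99.9th coverage percentile, were kept (528301), both strands of a CpG were summed (475516 CpGs, 329245 on linkage groups) and CpGs up to 100 bp apart were joined. A run mean is the unweighted mean over CpGs. Mean coverage per listed cytosine was 56.8, 79.6 and 69.3 reads in testis and 49.2, 99.5 and 47.9 reads in muscle. Wilson intervals cover counting error only. Tissues were compared by exact permutation tests over libraries and fish by limma 3.58.1 on all runs (0.5 added to each read number), tested on simulated data. The runs named were those with the most CpGs, the smallest and largest SD between CpGs, the largest range between fish in the same order, the highest and lowest coverage, those next to the limits and the closest pairs. The limits, the members and these lists were chosen with earlier results of these data known. Alternatives were other coverage limits, joining distances, methylation limits, a read-weighted mean, both strands required, fish as a block and each library or fish left out. RNA-seq tables and columns of the authors' comparison were not used here. Scripts ran under R 4.3.3 and Python 3.11.15 with scipy 1.17.1, pandas 2.3.3 and numpy 2.4.6, and plots were drawn with matplotlib 3.10.9.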

Additional observations from a re-analysis of the deposited data

Results flagged for a closer look

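Intermediate runs were also found in data that the comparisons above did not use. On sequence not placed on a linkage group, 129 of 7011 runs of 5 to 14 CpGs (1.84%, 95% Wilson interval 1.55 to 2.18%) met the same limits, against 1.36% on linkage groups (1.21 to 1.53%). Among runs of 15 or more CpGs on linkage groups, 21 of 1833 (1.15%, 0.751 to 1.75%) met them. Both are listed because no comparison of the report covers them.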

How the results depend on the processing

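The number of intermediate runs followed the limits that define them. It was 455 with CpGs joined up to 200 bp apart, 29 with limits of 40 to 60%, 493 with limits of 25 to 75% and 11 with both strands of each CpG required. With a fish left out it was between 353 and 451, the highest number being that without fish 3, and with the limits applied to testis and muscle 2 alone, a choice made after seeing the data, it was 506. The other settings left it between 218 and 317, but a mean weighted by reads gave 282 runs of which 216 were among the 281. Leaving out CpGs at 5% or less in every library, also chosen after seeing the data, gave 273. The difference of the flanks turned to -8.22 percentage points (p = 0.4, exact permutation test) with both strands required, which left 11 runs. The same setting gave -2.15 for CpGs at 0 or 100%, 5.38 for CpGs between 20 and 80% and -3.14 for the SD between CpGs. Limits of 40 to 60% gave 5.46 for CpGs between 20 and 80%, -3.20 for the SD between CpGs, 0.969 for the flanks and 0.03 for the log2 coverage ratio, and a minimum of 20 reads gave 1.02 for the flanks. The coverage ratio was 0.22 with CpGs joined up to 200 bp apart and 0.06 with a minimum of 5 reads. The cause was not tested. With single libraries left out, the difference of testis minus muscle ran from -9.64 to -5.28 for CpGs at 0 or 100%, 8.46 to 14.4 for CpGs between 20 and 80%, -10.9 to -6.80 for the SD between CpGs, -13.6 to -9.44 for strands and 2.81 to 4.95 for flanks. The log2 coverage ratio ran from 0.09 to 0.13 with a fish left out, and the runs called between fish stayed at 0. With fish as a block, the differences were -6.89, 11.0, -8.57, -11.1 and 3.56, each with the smallest p that an exact sign-flip permutation test over 3 fish allows (p = 0.25), and no call changed. Of 180 values of named runs, 10 moved by more than 1 SD between fish. They belong to the LG18-21 run at 16297249 (43.7%, moved to between 64.6 and 79.6%) and to the 14-CpG runs on LG5 (58.4%, moved to between 32.2 and 67.1%) and LG14 (63.2%, moved to between 42.4 and 66.8%). At 3 libraries a tissue no p can pass 0.05, so these tests could make no call.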
